A study of Mus musculus with 2 samples.

Results

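Cells carrying the transcript of Klf2 were compared with cells in which no Klf2 was recorded, among CD4 T cells of 1 antigen specificity. Members were chosen by the measured value of Klf2 itself. A cell was called Klf2-high when its deposited log2 value for Klf2 was 1 or above, which is a TPM-like value of at least 1 on the linear scale, and Klf2-zero when the value was exactly 0. By this rule 53 of the 178 cells of the series were Klf2-high and 89 were Klf2-zero, and the 36 cells between 0 and 1 were left out. The cells recognised 2W1S, a model peptide, and were sorted by flow cytometry from spleen and peripheral lymph nodes. The donors were C57BL/6 mice colonized with Candida albicans engineered to express it (Ca-2W1S). All cells of both classes carry that colonization, and no uncolonized mice were analysed here. They came from 2 samples labelled by month, March (27 Klf2-high and 39 Klf2-zero cells) and April (26 and 50). Each held 2 runs on the Fluidigm C1, an instrument that isolates single cells in a microfluidic chip. The runs are named Mar1 and Mar17, and Apr13 and Apr21. Here and below a capture means the cells of 1 month, pooled over its 2 runs, and not a single run. Neither the ages of the mice nor the number of mice per capture is in the labels, so the spread between captures may be technical.

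Klf2 is a zinc finger transcription factor of the Kruppel-like family. In T cells it is known for holding naive and memory cells in a resting state and for driving genes of recirculation through lymphoid tissue, among them the egress receptor S1pr1. Its transcription depends on Foxo1 and on MEF2 factors downstream of Mapk7 (ERK5), and it falls when the T cell receptor and the PI3K pathway are engaged. Loss of Klf2 in T cells is known to raise several chemokine receptors and to favour follicular helper T cells, which express Cxcr5, Pdcd1 and Bcl6. The title of the series ties CD4 T cells carrying Klf2 to protection from intestinal inflammation caused by the microbiota, and the comparison asks what else distinguishes such cells.

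The promoter of Klf2 is shown because it carries the kind of element through which MEF2 factors act, and 3 further promoters are shown because their genes are described below. Each is the stretch of 250 bases before the RefSeq transcription start (GRCm38.p6, the assembly behind mm10), read 5' to 3'. Capitals mark CTA and TAG set apart by any 4 bases, which is looser in those 4 bases than the MEF2 site, where they are A or T. They also mark CACCC or its reverse complement GGGTG, the core of sites bound by Kruppel-like factors. No match of one motif overlaps the other.
Klf2 promoter, chr8:72318812-72319061, forward strand: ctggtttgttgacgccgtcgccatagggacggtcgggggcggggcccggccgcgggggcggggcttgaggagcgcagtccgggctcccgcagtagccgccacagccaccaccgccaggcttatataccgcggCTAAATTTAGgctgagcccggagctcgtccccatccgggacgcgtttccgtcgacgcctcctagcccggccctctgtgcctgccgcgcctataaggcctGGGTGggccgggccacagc
Itgb7 promoter, chr15:102231936-102232185, reverse strand: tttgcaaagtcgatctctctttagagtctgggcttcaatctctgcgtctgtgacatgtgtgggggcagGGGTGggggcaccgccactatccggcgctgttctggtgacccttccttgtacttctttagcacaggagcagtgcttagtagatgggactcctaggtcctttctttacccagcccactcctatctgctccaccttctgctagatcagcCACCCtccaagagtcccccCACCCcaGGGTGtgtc
Klf3 promoter, chr5:64803271-64803520, forward strand: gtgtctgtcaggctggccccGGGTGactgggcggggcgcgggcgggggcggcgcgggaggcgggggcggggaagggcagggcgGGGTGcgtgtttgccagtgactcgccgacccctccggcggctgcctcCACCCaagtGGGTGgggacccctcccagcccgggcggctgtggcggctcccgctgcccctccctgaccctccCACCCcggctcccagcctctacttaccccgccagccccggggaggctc
Il7r promoter, chr15:9529877-9530126, reverse strand: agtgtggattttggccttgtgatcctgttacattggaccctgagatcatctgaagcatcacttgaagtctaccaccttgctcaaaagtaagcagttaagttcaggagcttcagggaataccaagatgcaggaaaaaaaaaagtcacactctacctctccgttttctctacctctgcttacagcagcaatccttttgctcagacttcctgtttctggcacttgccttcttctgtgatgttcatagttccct
The Klf2 promoter held CTAAATTTAG beginning 118 bases before the start and 1 GGGTG beginning 19 bases before it. CTA and TAG set apart by any 4 bases occurred in 3.2% of 32851 promoters of this length. That share includes matches with G or C between them and leaves out sites that begin or end with other letters. CACCC on either strand occurred in 52.0%. The promoter of Itgb7, an integrin chain and known Klf2 target, held 4 CACCC matches. Klf3 held 5 and Il7r held 0. S1pr4 had 1 match, and the 2 promoters listed for Emp3 had 2 and 3. S1pr1 and Ccr7 were not matched in the promoter table. The RefSeq starts differ from those of GENCODE, the annotation used for gene positions below. By GENCODE the Il7r stretch lies wholly inside the gene (9505788 to 9530176). The stretches of Klf2, Itgb7 and Klf3 overlap their genes in part. Klf3 begins at 64803388, so its matches nearest the RefSeq start lie inside the gene. The counts thus do not compare stretches that all lie upstream. A match describes letters only and is no measurement of binding.

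**Figure D1:**
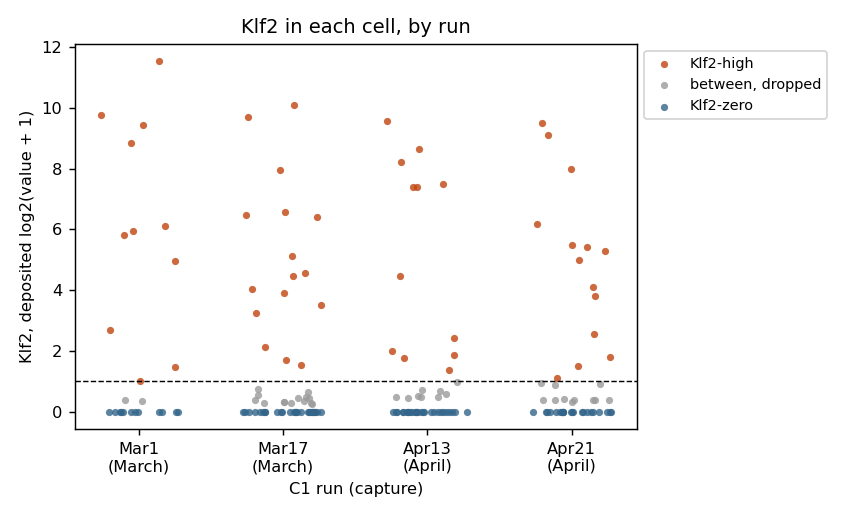
Deposited log2 value of Klf2 in each of the 178 cells (vertical axis), by C1 run (horizontal axis), with Klf2-high cells in orange, Klf2-zero cells in blue and the 36 cells between in grey. The dashed line is the threshold of 1, and the Klf2-high cells above it spread from 1.01 to 11.5.

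The values that chose the classes are given as a description. In the 27 March Klf2-high cells Klf2 (chromosome 8, 72319033 to 72321656, mm10) ran from 1.01 through a median of 5.14 to 11.5 on the log2 scale. In the 26 April cells it ran from 1.10 through 5.15 to 9.56. The plot of Klf2 by run shows no clear gap at the threshold: the lowest Klf2-high cells stood at 1.01, 1.10 and 1.36, and the highest of the dropped cells at 0.991, 0.955 and 0.898. Of the Klf2-high cells 38 were at 3 or above and 15 lay between 1 and 3. Klf2-high cells made up 44.0% of the 25 cells of the Mar1 run (95% interval 24.4% to 65.1%), 28.1% of the 57 of Mar17 and 29.2% of the 48 of Apr21, and 12 of the 48 cells of Apr13.

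Both classes had a similar number of genes detected and carried CD4 T cell transcripts. The median number of genes with a value above 0 was 5305 in Klf2-high and 5294 in Klf2-zero March cells, and 4997.5 and 4932 in April cells. Of the 8 CD4 T cell markers, a median of 7 per cell reached 1 in each class, and their summed linear value ran from 118 to 31801 in Klf2-high and from 73.3 to 30255 in Klf2-zero cells. Cd3d reached 1 in 53 of 53 Klf2-high and 89 of 89 Klf2-zero cells. Low values of other cell types' genes were common in both: Ebf1, a B cell transcription factor, reached 1 in 90.6% of Klf2-high and 88.8% of Klf2-zero cells, while the median of Cd74, Pax5, Cd8a and Csf1r was 0 in each class. Of 41 markers of other cell types listed, 15 were in the table. Their summed value had medians of 3.40 and 3.32 for the 5 B cell genes, in Klf2-high and Klf2-zero cells, and 2.36 and 2.89 for the 3 myeloid genes. Itga2b, a platelet integrin, reached 1 in 13.2% of Klf2-high and 1.12% of Klf2-zero cells.

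A few cells stood apart from the rest of their class. In 3 Klf2-zero cells of Mar1 mitochondrial transcripts took over 50% of the signal, up to 93.9%. In 1 Klf2-high cell of Mar1 the B cell and antigen presentation transcripts Cd74, H2-Aa, H2-Ab1 and Igkc stood at 13.3, 13.1, 12.8 and 14.5, Trac was 0 and Klf2 was 9.45. The summed B cell markers of that cell were 27851, against a highest value of 1632.8 in any Klf2-zero cell. The number of genes called, the list counts and medians and the combinations of transcripts were also computed without the mitochondrial cells, without that cell and without the 7 cells whose CD4 T cell markers summed to under 1000 (2 Klf2-high, 4 Klf2-zero and 1 dropped). Apart from the calls and medians without the mitochondrial cells these were added after seeing the data, and the larger moves are given beside the result.

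Across all genes, none passed the test. The mean log2 value of each class in each capture was compared with limma, with the capture as a block, for 10695 genes with a value above 0 in at least 10% of the compared cells. A difference below is the Klf2-high mean minus the Klf2-zero mean on the log2(value + 1) scale with cells at 0 included, so it is not a fold change. Of the 10695 genes 0, or 0%, passed an adjusted p of 0.05, and the smallest adjusted p was 0.735. At an unadjusted p under 0.05 there were 695 genes (6.5%), of which 266 (2.49%) had the higher mean in Klf2-high and 429 (4.01%) in Klf2-zero cells. Differences were above 0 in both captures for 2319 genes (21.7%) and below 0 in both for 3132 (29.3%). In all 4 runs they were above 0 for 574 genes (5.37%) and below 0 for 752 (7.03%). The mean difference was above 0 for 4860 genes (45.4%) and below 0 for 5835 (54.6%). The median gene stood at -0.03. No gene named below passed the limma test, and their adjusted p-values lay between 0.735 and 0.994. What follows therefore gives levels, signs and counts against these shares.

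The genes that Klf2 is known to drive did not lean to the Klf2-high class together. Of 8 listed targets 6 were in the table and tested, and 4 had the higher mean in Klf2-high cells, against 45.4% of all genes. Of the 6, 2 were above 0 in both captures and 0 were below 0 in both, and the median difference was 0.23. The median was 0.09 in March and 0.28 in April.

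Ccr7, the chemokine receptor that guides T cells into lymph nodes, had the largest difference above 0 of the 6. Emp3, described below, was further from 0, at -1.13. The mean of Ccr7 was 3.78 in Klf2-high and 2.49 in Klf2-zero March cells, and 1.93 and 1.12 in April cells. Its difference was 1.05 ± 0.44 (unadjusted p 0.0324, adjusted p 0.736 in limma). Here and below ± is the moderated SE of limma, which pools variance over genes and is not the spread of the 2 captures. Cells at 1 or above numbered 16 of 27 and 16 of 39 in March, and 7 of 26 and 8 of 50 in April. By run the difference was 3.63 in Mar1, -0.05 in Mar17, 1.34 in Apr13 and 0.30 in Apr21, so the March value comes from the Mar1 run.

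S1pr1, the sphingosine-1-phosphate receptor needed to leave lymphoid organs, differed in sign between captures. Its means were 2.28 and 2.57 in March and 3.43 and 1.98 in April, for a difference of 0.57 ± 0.51. In April 14 of 26 Klf2-high and 16 of 50 Klf2-zero cells were at 1 or above, and in March 13 of 27 and 17 of 39. The classes overlap fully: S1pr1 reached 10.3 in Klf2-high and 10.5 in Klf2-zero March cells.

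Of the other listed targets, Itgb7 stood at 0.33 ± 0.48, from 0.47 (March) and 0.18 (April), but at -0.31 in Mar1 and -1.25 in Apr21. S1pr4, a second sphingosine-1-phosphate receptor, stood at 0.13 ± 0.44 with opposite signs in the captures. Emp3, a small membrane protein, stood at -1.13 ± 0.61, from -2.34 in March and 0.08 in April. None of the 6 kept 1 sign over all 4 runs.

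Genes known to go up when Klf2 is lost had a median difference of -0.09 over 6 tested of 7 listed. Of these 4 were below 0, against 54.6% of all genes, and 2 were below 0 in both captures. Cxcr5, the receptor that draws cells to B cell follicles, had means of 1.37 in Klf2-high and 1.58 in Klf2-zero March cells and of 1.54 and 2.52 in April cells, a difference of -0.59 ± 0.41. Il4 stood at -0.14 and Bcl6, the follicular helper master regulator, at -0.18 with opposite signs in the captures. Cxcr3 stood at -0.04. Cd69, an early activation marker that removes S1pr1 from the surface, had means of 3.43 and 4.36 in March and of 5.96 and 4.01 in April. The cells at 1 or above for S1pr1 and under 1 for Cd69 were 6 of 53 Klf2-high and 14 of 89 Klf2-zero cells.

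**Figure D2:**
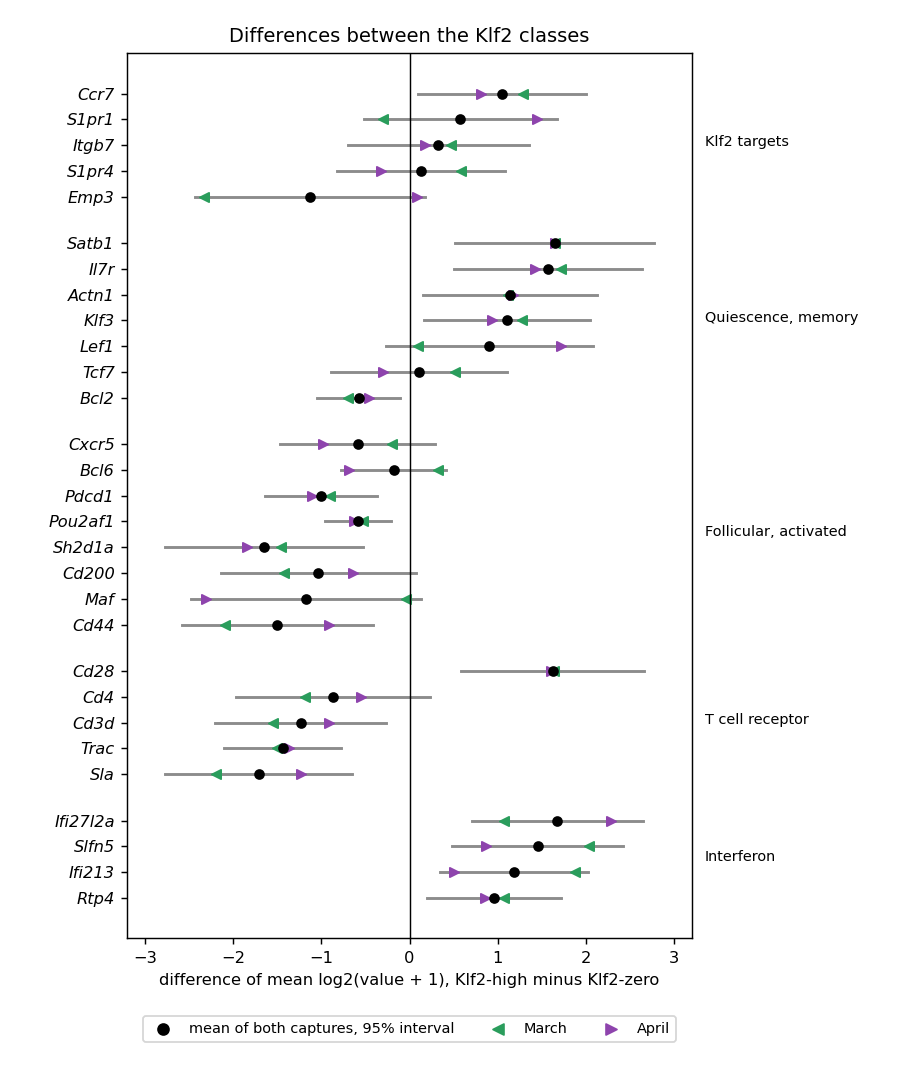
Difference of mean log2(value + 1) between Klf2-high and Klf2-zero cells (horizontal axis) for 29 genes in 5 groups, with the mean of both captures as a black point, its 95% interval from limma as a bar, and the March and April values as green and purple triangles. Satb1, Il7r, Actn1 and Cd28 lie to the right in both captures and Trac, Pdcd1, Pou2af1 and Cd44 to the left, while S1pr1 has 1 triangle on each side.

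Regulators upstream of Klf2 gave small differences. Of 16 tested genes of 19 listed, 11 were above 0, 5 above 0 in both captures and 1 below 0 in both, with a median of 0.03. Over all genes 45.4% were above 0, and 21.7% in both captures. Foxo1, the factor known to drive Klf2 transcription, had means of 3.08 in Klf2-high and 2.48 in Klf2-zero March cells but of 2.14 and 3.95 in April cells, a difference of -0.61 ± 0.57. Its paralog Foxo3 stood at 0.67 ± 0.42 and was above 0 in all 4 runs. Mef2d and Mef2a, whose products bind elements of the kind printed in capitals in the Klf2 promoter, stood at 0.50 ± 0.26 and 0.34 ± 0.18, each above 0 in both captures. Both were sparse: Mef2d reached 1 in 10 of 53 Klf2-high and 9 of 89 Klf2-zero cells, and Mef2a in 5 and 5.

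Within the Kruppel-like and Sp family, 12 of 20 genes were tested, 7 were above 0 and 5 of them in both captures, with a median of 0.22. Over all genes these shares were 45.4% and 21.7%. Without the cells low in T cell markers 3 of the 12 were above 0 in both. Klf3, a repressor of the family, had means of 3.14 and 1.87 in March and of 2.62 and 1.68 in April, for a difference of 1.11 ± 0.44 (unadjusted p 0.0247, adjusted p 0.735 in limma). That difference came from 1 run of each capture, 2.10 in Mar17 and 2.23 in Apr21, against -0.48 in Mar1 and -0.56 in Apr13. Klf6, an activation-responsive member, stood at 0.94 ± 0.53 and was at 1 or above in March in 20 of 27 Klf2-high and 20 of 39 Klf2-zero cells, with April counts of 21 of 26 and 39 of 50.

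Genes of T cell quiescence leaned to the Klf2-high class. Of 22 members, all tested, 16 were above 0, 12 were above 0 in both captures against a background of 21.7%, and 2 were below 0 in both. At an unadjusted p under 0.05 there were 5 with the higher and 1 with the lower mean in Klf2-high cells, and 0 passed the adjusted test. The list median was 0.52, with 0.57 in March and 0.56 in April, beside -0.03 for all genes. Without the cells low in T cell markers 7 of the 22 were above 0 in both captures, against 20% of all genes, and without the mitochondrial cells or the cell with B cell transcripts 11. The naive and central memory list, which shares 5 members with it, had 15 genes tested, 12 above 0, 10 above 0 in both captures and a median of 0.64. Its median was 0.38 without the Mar1 run, and without the cells low in T cell markers 7 were above 0 in both captures.

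Satb1, a chromatin organiser of thymocytes and resting T cells, had the same difference in every run. Its mean was 6.03 in Klf2-high and 4.38 in Klf2-zero March cells and 4.90 and 3.25 in April cells, a difference of 1.65 ± 0.53 (95% interval 0.52 to 2.78, unadjusted p 0.00732, adjusted p 0.735 in limma). By run it was 1.58, 1.75, 1.54 and 1.59. The median cell stood at 6.33 against 2.84 in March and at 6.06 against 1.26 in April, while the highest cells of the classes were alike, at 12.5 and 11.6 in March.

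Il7r, the receptor chain for the survival cytokine interleukin-7, had means of 4.09 and 2.38 in March and of 4.21 and 2.78 in April, a difference of 1.57 ± 0.50 (unadjusted p 0.00689, adjusted p 0.735 in limma). It was above 0 in all 4 runs, from 0.47 in Apr21 to 2.49 in Mar1. Among the promoters printed above, its was the one without a CACCC match, but that stretch lies inside the gene by GENCODE. The plot of single cells shows Il7r cells near 0 and cells above 6 in every class: 15 of 27 Klf2-high and 17 of 39 Klf2-zero March cells were at 1 or above, and 16 of 26 and 20 of 50 April cells.

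Actn1, an actin crosslinker of naive T cells, stood at 1.14 ± 0.46 and was above 0 in all 4 runs, from 0.79 to 1.49. Lef1, a factor of naive and memory T cells, stood at 0.90 ± 0.55, from 0.09 in March and 1.71 in April, and its partner Tcf7 at 0.11 ± 0.46 with opposite signs. Against the list, the survival gene Bcl2 stood at -0.58 ± 0.22 and was below 0 in all 4 runs, with 3 of 53 Klf2-high and 13 of 89 Klf2-zero cells at 1 or above. The quiescence list thus holds members of both signs, and its median does not describe Bcl2 or Foxo1.

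**Figure D3:**
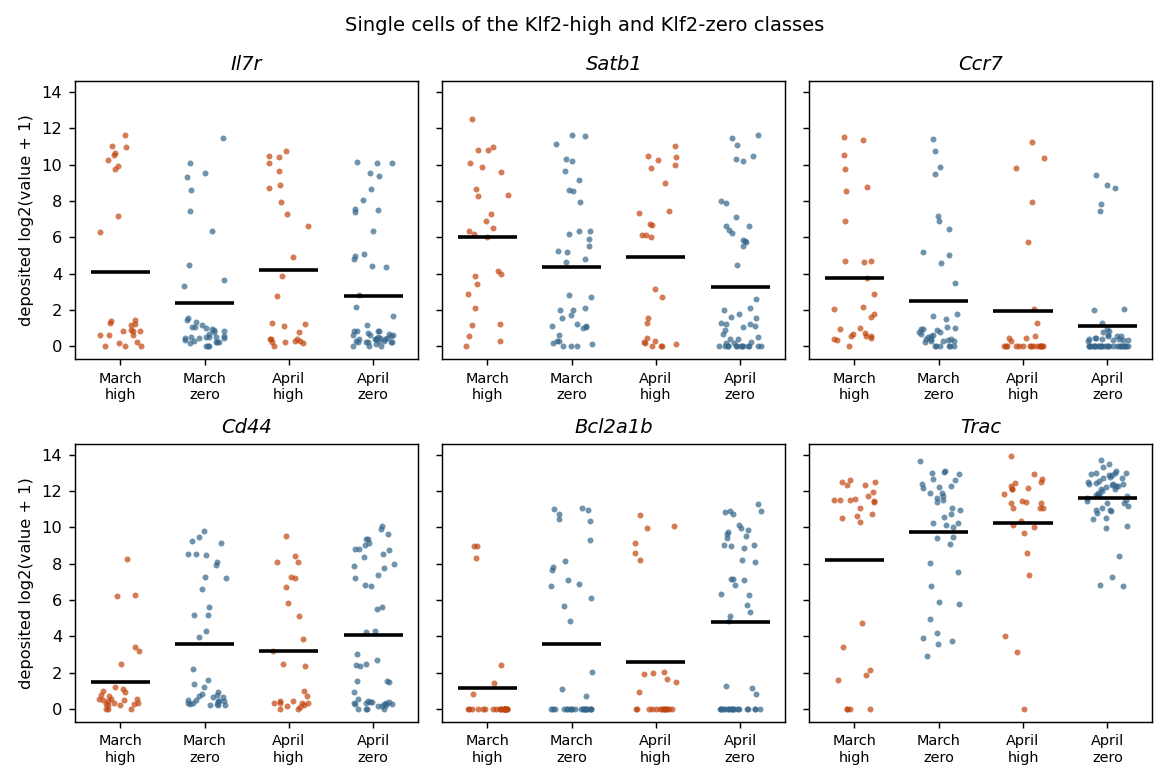
Deposited log2 value (vertical axis) of 6 genes in each Klf2-high (orange) and Klf2-zero (blue) cell, by capture (horizontal axis), with the class mean as a black bar. Cells of both classes span much of the same range for each gene, and of the plotted cells those with Trac at 0 are Klf2-high.

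Follicular helper genes leaned to the Klf2-zero class. Of 16 tested follicular helper genes (17 listed) 15 were below 0, 11 below 0 in both captures against 29.3% of all genes, and 3 below 0 at an unadjusted p under 0.05. The list median was -0.32, with -0.28 in March and -0.66 in April. Without each of the 3 sets of cells that stood apart 14 were below 0, and 11 or 12 in both captures.

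Pdcd1, the inhibitory receptor PD-1, had means of 0.0985 in Klf2-high and 1.0 in Klf2-zero March cells and of 0.515 and 1.62 in April cells, a difference of -1.01 ± 0.30 (unadjusted p 0.00427, adjusted p 0.735 in limma). It was below 0 in all 4 runs, from -0.49 to -1.35. Only 2 of 53 Klf2-high cells were at 1 or above, both in April, against 20 of 89 Klf2-zero cells. No March Klf2-high cell exceeded 0.573, while Klf2-zero cells reached 10.99.

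Sh2d1a, the adaptor SAP that follicular helper cells need to signal to B cells, stood at -1.65 ± 0.52 and between -1.17 and -1.88 in the 4 runs. Pou2af1, a coactivator of follicular helper and B cells, stood at -0.58 ± 0.17 and was at 1 or above in 1 of 53 and 9 of 89 cells. Cd200 stood at -1.03 ± 0.51, below 0 in all 4 runs. Maf, a factor of follicular and interleukin-producing T cells, split by capture, at -0.04 in March and -2.31 in April. Icos, a costimulatory receptor, stood at -0.22 ± 0.54 with opposite signs in the captures. Within the list the receptors Pdcd1 and Cd200 and the adaptor Sh2d1a were thus further below 0 than Bcl6.

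Cd44, the adhesion receptor that marks antigen-experienced T cells, had means of 1.49 and 3.58 in March and of 3.17 and 4.09 in April, a difference of -1.50 ± 0.51 (unadjusted p 0.0103, adjusted p 0.735 in limma). It was below 0 in all 4 runs, with 13 of 26 and 31 of 50 April cells at 1 or above, and 8 of 27 and 21 of 39 in March.

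Regulatory T cell genes had a median of -0.34 over 13 tested of 16 listed, with 11 below 0 and 7 below 0 in both captures. Over all genes these shares were 54.6% and 29.3%. Ikzf2 (Helios), found in regulatory and chronically stimulated T cells, stood at -1.09 ± 0.38 and below 0 in all 4 runs. Foxp3, the regulatory T cell factor, was at 1 or above in 1 of 53 Klf2-high and 6 of 89 Klf2-zero cells and stood at -0.34 ± 0.16. Its companions split: Nrp1 stood at -0.72, Ctla4 at -0.65 from -1.36 in March and 0.06 in April, and Il2ra at 0.15. The exhaustion and anergy list, which shares 5 members with the follicular and regulatory lists, had a median of -0.30. Of its 15 tested genes 10 were below 0, against 54.6% of all genes. In it Egr2 and Nr4a2, factors induced by T cell receptor signals, stood at -0.56 ± 0.31 and -0.51 ± 0.23. The Th2 factor Gata3 stood at 0.09 ± 0.53.

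**Figure D4:**
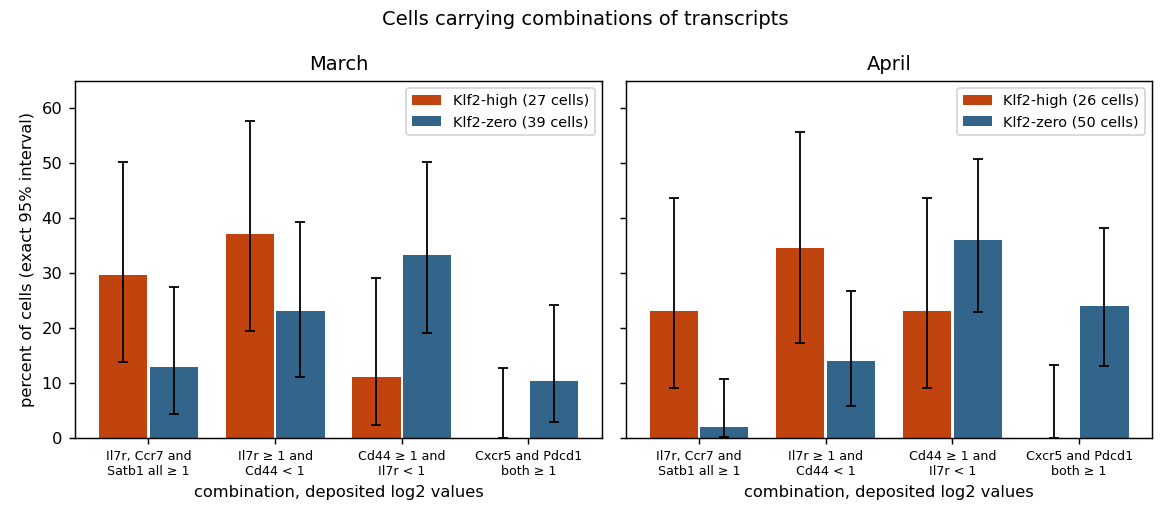
Percent of Klf2-high (orange) and Klf2-zero (blue) cells with 4 combinations of transcripts (horizontal axis), in March (left) and April (right), with exact 95% intervals that cover counting error only. No Klf2-high cell of either capture held Cxcr5 and Pdcd1 together at 1 or above, and the intervals of most pairs of bars overlap. Pdcd1 alone reached 1 in 2 of 53 Klf2-high cells, so few could hold the pair.

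The same genes were counted together in single cells, for combinations chosen after their values were seen, so the counts are descriptions without a test. Cxcr5 and Pdcd1 at 1 or above together, the receptor pair of follicular helper cells, were found in 0 of 53 Klf2-high cells, which allows a share of up to 5.66% by 3 counts of the total and of up to 6.72% by the exact 95% interval, for counting error only. Among Klf2-zero cells 16 of 89, or 18.0% (exact 95% interval 10.6% to 27.5%), held both, 4 of 39 in March and 12 of 50 in April. By run the Klf2-zero counts were 1 of 12 in Mar1, 3 of 27 in Mar17, 7 of 27 in Apr13 and 5 of 23 in Apr21, and 3 of the 36 dropped cells held both. Apart, Cxcr5 was at 1 or above in 11 of 53 Klf2-high and 34 of 89 Klf2-zero cells. Pdcd1 was at 1 or above in 2 of 53 and 20 of 89. Thus at most 2 Klf2-high cells could hold both, and the count of 0 adds little to that of Pdcd1. With any value above 0 counted, 10 of 53 Klf2-high (18.9%) and 36 of 89 Klf2-zero cells (40.4%) held both.

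At the other end, Il7r, Ccr7 and Satb1 at 1 or above together were found in 14 of 53 Klf2-high cells, 26.4% (15.3% to 40.3%). Among Klf2-zero cells they were found in 6 of 89, 6.74% (2.51% to 14.1%). In March it was 8 of 27 and 5 of 39, in April 6 of 26 and 1 of 50. Of the 8 March Klf2-high cells 5 came from Mar1. Without each of the 3 sets of cells that stood apart, 14 Klf2-high and 6 Klf2-zero cells still held these 3 transcripts, and 0 and 16 held Cxcr5 and Pdcd1. Il7r at 1 or above with Cd44 below 1 was found in 19 of 53 (35.8%) and 16 of 89 cells (18.0%), and the reverse, Cd44 without Il7r, in 9 of 53 (17.0%) and 31 of 89 (34.8%). Apart, Il7r was at 1 or above in 31 of 53 Klf2-high and 37 of 89 Klf2-zero cells. Ccr7 was so in 23 and 24, Satb1 in 42 and 60 and Cd44 in 21 and 52. The combined counts thus partly restate single-gene differences, and co-expression beyond these was not tested. Most cells of both classes fit neither the Il7r, Ccr7 and Satb1 pattern nor the Cxcr5 and Pdcd1 pattern.

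Transcripts of the T cell receptor complex and its signalling had the lowest list median of all, -0.47, with -0.45 in March and -0.55 in April. Of 21 members, all tested, 16 were below 0, 12 below 0 in both captures and 4 below 0 at an unadjusted p under 0.05. Over all genes these shares were 54.6%, 29.3% and 4.01%. Trac (chromosome 14, 54220521 to 54224206), the constant region of the receptor alpha chain, had means of 8.21 in Klf2-high and 9.72 in Klf2-zero March cells and of 10.3 and 11.6 in April cells. Its difference was -1.44 ± 0.31 (95% interval -2.11 to -0.77, unadjusted p 0.00039, adjusted p 0.735 in limma), from -0.21 in Mar1 to -2.24 in Apr21. The medians were closer, 11.04 against 10.7 in March and 11.3 against 12.04 in April. Trac was exactly 0 in 5 of 53 Klf2-high cells, 4 from March, and in 0 of 89 Klf2-zero cells, and 1 of those 5 is the cell with B cell transcripts described above. Without the cells low in T cell markers it was 0 in 3 of 51 and 0 of 85. The March medians have the opposite order from the means.

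Sla, an adaptor that promotes removal of the receptor, stood at -1.71 ± 0.50 and below 0 in all 4 runs, and Cd3d at -1.23 ± 0.45 but at -0.03 in Mar1 and 0.20 in Apr13. Cd4 stood at -0.87 ± 0.51, below 0 in all 4 runs. Cd28, the main costimulatory receptor, went the other way, at 1.62 ± 0.49 (March 1.64, April 1.61), and was above 0 in all 4 runs. The joining segment Trbj2-4 stood at -1.84 ± 0.41 and was at 1 or above in 5 of 53 and 23 of 89 cells. Reads of a joining segment depend on which receptor a cell carries.

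Interferon-stimulated genes leaned to the Klf2-high class, more in March than in April. Of 28, all tested, 23 were above 0, 16 above 0 in both captures and 10 above 0 in all 4 runs. At an unadjusted p under 0.05 there were 7 above 0. Over all genes these 4 shares were 45.4%, 21.7%, 5.37% and 2.49%. The list median was 0.48, from 0.82 in March and 0.22 in April. Ifi27l2a, an interferon-induced membrane protein, had means of 8.08 and 7.01 in March and of 9.67 and 7.38 in April, a difference of 1.68 ± 0.45 (unadjusted p 0.00238, adjusted p 0.735 in limma). Slfn5, a Schlafen family gene, stood at 1.45 ± 0.45, Ifi213, an interferon-inducible nuclear protein, at 1.19 ± 0.39 and Rtp4 at 0.96 ± 0.36, each above 0 in all 4 runs. Slfn5 was at 1 or above in 17 of 27 and 11 of 39 cells in March and in 17 of 26 and 22 of 50 in April.

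Immediate early genes, which respond within minutes to receptor signals and to tissue dissociation, were mixed, with 12 of 19 tested above 0 and a median of 0.15. Over all genes 45.4% were above 0. Fos, a subunit of AP-1, stood at 1.72 ± 0.55 and Zfp36, which promotes mRNA decay, at 1.54 ± 0.52. Fos was above 0 in all 4 runs and Zfp36 below 0 in Mar1. The dissociation stress list, which shares Fos and Jun with it, had a median of 0.21 with 8 of 12 tested above 0, and its part in the Fos value was not tested.

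**Figure D5:**
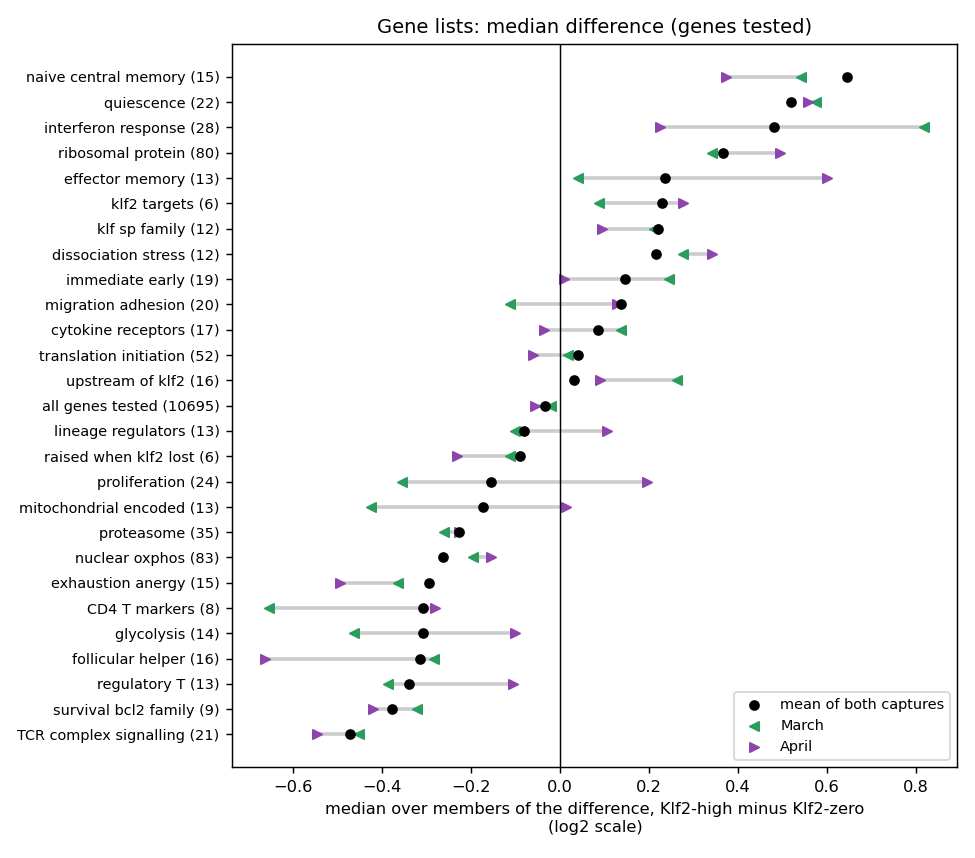
Median difference over the tested members (number in parentheses) of 26 gene lists and of all genes (horizontal axis, log2 scale), for the mean of both captures (black), March (green) and April (purple). The naive and central memory, quiescence, interferon and ribosomal lists lie to the right in both captures, and the T cell receptor, Bcl2 family, regulatory and follicular lists to the left.

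Housekeeping groups were counted in the same way, beside 45.4% of all genes above 0 and 54.6% below 0. In both captures these shares were 21.7% and 29.3%. Of 80 ribosomal protein genes 65 were above 0, 53 in both captures and 3 below 0 in both, with a median of 0.37. That median was 0.17 without the 3 mostly mitochondrial Klf2-zero cells, 0.19 without the Mar1 run and 0.06 without the cells low in T cell markers. Without the mitochondrial cells 31 of the 80 were above 0 in both captures and 11 below 0 in both, and without the cells low in T cell markers 22 and 11. Rps16 stood at 1.09 ± 0.35, Rps27a at 1.16 ± 0.38 and Rpl19 at 0.91 ± 0.30, each above 0 in all 4 runs. Under the other processing choices described below, these 3 genes stood as low as 0.35, 0.29 and 0.29. Glycolytic enzymes had a median of -0.31 over 14 tested of 16, with 11 below 0. Pgk1, which makes ATP in glycolysis, had means of 1.11 and 3.78 in March and of 2.48 and 3.59 in April, a difference of -1.89 ± 0.51, while Aldoa (aldolase) stood at -1.37 ± 0.51 and Pfkl, a phosphofructokinase, at -0.54 ± 0.24.

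Nuclear genes of the respiratory chain had a median of -0.26, with 61 of 83 tested below 0 and 35 below 0 in both captures. Over all genes 54.6% were below 0, and 29.3% in both captures. Ndufb9, of complex I, stood at -1.52 ± 0.48 and Cox8a, of complex IV, at -1.39 ± 0.53. Proteasome genes had a median of -0.23, with 25 of 35 tested below 0, among them Psmc5 at -1.53 ± 0.49 and Psma1 at -1.44 ± 0.49. The translation initiation list was centred at 0.04, but its members Eif2s2 and Eif1ax, which act in start codon selection, stood at -1.90 ± 0.46 and -1.45 ± 0.43. Proliferation genes split by capture, with a median of -0.36 in March and 0.19 in April over 24 genes. Effector memory genes had 10 of 13 tested above 0, 6 above 0 in both captures and a median of 0.24, from 0.04 in March and 0.60 in April. Over all genes 45.4% were above 0, and 21.7% in both captures. The migration (0.14), cytokine receptor (0.09) and lineage regulator (-0.08) lists had medians nearer to 0.

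Of the single genes with the smallest p among those lower in Klf2-high cells, Bcl2a1b came first. This anti-apoptotic Bcl2 family gene (chromosome 9, 89199209 to 89207827) has near-identical paralogs, so reads may be split among them and its level is uncertain. Its means were 1.14 in Klf2-high and 3.56 in Klf2-zero March cells and 2.57 and 4.80 in April cells, a difference of -2.32 ± 0.48 (95% interval -3.35 to -1.30, unadjusted p 0.000254, adjusted p 0.735 in limma). It was below 0 in all 4 runs, from -0.88 to -3.68, and at 1 or above in 5 of 27 and 18 of 39 cells in March and in 11 of 26 and 30 of 50 in April. The Bcl2 family list as a whole had 8 of 9 tested genes below 0, against 54.6% of all genes, and a median of -0.38. Bcl2a1b and Trac were called at an adjusted p of 0.0325 in limma when a pseudocount of 0.1 replaced 1, and Bcl2a1b alone at 0.0495 without the Apr13 run.

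Also among the genes with the smallest p on that side, beside Trac, Trbj2-4 and Eif2s2, were the magnesium transporter Slc41a1 at -1.23 ± 0.28, at 1 or above in 1 of 53 and 20 of 89 cells, and the kinase Nlk at -1.63 ± 0.38, in 7 and 34. The ubiquitin ligase Mgrn1 stood at -1.13 ± 0.28, Ccdc115 at -0.90 ± 0.23, the complex I assembly factor Ndufaf3 at -0.87 ± 0.23 and the interleukin-1 receptor Il1r1 at -0.87 ± 0.23. Mgrn1 reached 1 in 4 of 53 and 18 of 89 cells, Ccdc115 in 1 and 14 and Ndufaf3 in 1 and 11. Il1r1 was at 1 or above in 0 of 53 Klf2-high cells, which allows up to 5.66% by 3 counts, and in 12 of 89 Klf2-zero cells. Genes in 1 sign over all 4 runs with large differences included Mrpl20 at -1.78, Psenen at -1.67 and Ddx39b at -1.66 on this side.

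On the Klf2-high side, Crip1, a small LIM protein of memory T cells, had the smallest p. Its means were 5.97 and 3.86 in March and 5.79 and 3.75 in April, a difference of 2.08 ± 0.53 (unadjusted p 0.00148, adjusted p 0.735 in limma), although it stood at -1.02 in Mar1. Rasa3, a Ras GTPase-activating protein, stood at 1.69 ± 0.44 and above 0 in all 4 runs, with 25 of 53 and 23 of 89 cells at 1 or above. Zfp318 stood at 0.85 ± 0.22, the replication nuclease Fen1 at 0.96 ± 0.27 and Dgcr2 at 1.10 ± 0.31. The pseudogenes Gm15427, Gm9701 and Gm8995 stood at 0.94, 1.17 and 1.54, and reads of a pseudogene cannot be told from those of its parent here. By run Gm9701 stood at 3.32 in Mar1 and 1.95 in Apr13, but at 0.12 in Mar17 and 0.27 in Apr21. Cytip, which binds an integrin regulator, and Sptbn1, a spectrin, stood at 1.88 ± 0.55 and 1.66 ± 0.52, above 0 in all 4 runs. The uncharacterised 2510002D24Rik stood at 1.66 ± 0.45.

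The 36 dropped cells were looked at beside the classes they lie between. Satb1 averaged 3.53 in March and 3.74 in April dropped cells, and Il7r 3.62 and 3.24. Pdcd1 averaged 1.31 and 0.947 in them, and Trac 8.94 and 10.7. Il7r and Trac were thus between the Klf2-high and Klf2-zero means in both captures, while Satb1 was below both in March and Pdcd1 above both in March.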

How the data were processed

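The authors deposited 1 table of log2 values for 12432 genes in 178 cells, made with SMART-Seq v4 chemistry on the Fluidigm C1 per the labels' protocols, without molecular identifiers. The build is mm10 per the submitters' processing notes, with aligner and counter not given in the sources used here. Back-transformed, the deposited log2 values summed to between 892205 and 979887 in each cell, and they were therefore read as TPM-like values with 1 added before the log. No header says so. Read depth is unknown. Of the Ensembl IDs, 12163 matched a symbol and 269 did not, and 0 columns were left unmapped. Positions are from GENCODE vM21 and promoters from RefSeq.

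Classes were compared with limma 3.58.1 in R 4.3.3 (mean-variance trend, two-sided, Benjamini-Hochberg adjustment at 0.05) on the mean log2 value per capture and class, which gives 4 libraries, blocked by capture, and 1 residual degree of freedom. The ± values and the intervals of differences use limma's moderated variance, pooled over genes, and do not measure the spread between captures. Klf2 was left out of the test. Cells were never taken as replicates, and with 2 captures a permutation test cannot reach 0.05. The method was also run on simulated data, whose outcome is not reported here and lends the test no support. No doublet caller was run, and 0 pairs of cells were identical. The capture numbers pair the classes because both classes come from the same runs of each month, and 1 alternative drops that block. Intervals of cell shares are exact Clopper-Pearson 95% intervals, and a count of 0 allows up to 3 counts of the total. Other steps used Python 3.11.15, pandas 2.3.3 and SciPy 1.17.1.

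The classes, the 31 gene lists and the combinations of transcripts were chosen with earlier results of these data known. The rule for named genes took up to 10 genes per direction with the smallest p and 1 sign in both captures, all tested members of the lists of Klf2 targets and of genes raised on Klf2 loss, up to 4 per other list, a fixed set of regulators, and up to 6 per direction with 1 sign in all 4 runs and the largest difference among genes at 1 or above in at least 25% of the compared cells. It gave 128 genes, of which 82 are described, and some others are not reported here. Alternatives changed the block, pseudocount, gene filter, scale, normalization, weights, class limits and the cells or runs included.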

Additional observations from a re-analysis of the deposited data

How the results depend on the processing

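The limma test called 0 genes in 18 of 20 alternatives. It called 2 with a pseudocount of 0.1 (Bcl2a1b at -3.06 and Trac at -1.77) and 1 without the Apr13 run (Bcl2a1b at -3.05). The smallest adjusted p ran from 0.0325 to 1 and the number of genes at an unadjusted p under 0.05 from 450 to 822. Without the replicate block it called 0 genes, 450 at an unadjusted p under 0.05. With the 4 runs as replicate block these numbers were 0 and 618. The counts without the mostly mitochondrial cells were 0 and 696. Without the cell with B cell transcripts and without the cells low in T cell markers, both chosen after seeing the data, they were 0 and 765, and 0 and 712. Averaging linear values put the median of all genes at -0.17. Quiescence, naive and central memory, follicular, regulatory, exhaustion, T cell receptor, interferon, glycolysis, Bcl2 family, ribosomal and proteasome medians kept their sign in 20 of 20 alternatives, and the Klf2 target median in 17. Depth is unknown, so cells at 0 may hold transcripts that were missed, and 1 residual degree of freedom limits every test.

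Of 1631 values of single genes under the alternatives 30 changed sign, in each case for a gene with a difference small beside its error or a split between captures or runs, and the cause was not tested. With linear values averaged, S1pr4 stood at -0.83, Cd69 at -0.0098, Bcl6 at 0.10 and Il4 at 0.13. With Klf2-high taken as any value above 0, Bcl6 stood at 0.014, Il4 at 0.047 and Tcf7 at -0.25. With Klf2-high at 3 or above, Gata3 stood at -0.17 and Tcf7 at -0.25, and against all cells below 1 Cxcr3 stood at 0.060. Gata3 was -0.070 without the mitochondrial cells, and without the cells low in T cell markers Gata3 was -0.11 and Tcf7 -0.00060. Without Mar1, Icos was 0.055, Gata3 -0.14 and Tcf7 -0.021. Without Mar17, Cxcr3 was 0.029, S1pr4 -0.19, Foxo1 0.17, Cox8a 0.054, Nrp1 0.039 and Itgb7 -0.067. Without Apr13, Bcl6 was 0.024, Gata3 -0.21, Itgb7 -0.39 and Tcf7 -0.18. Without Apr21, Cxcr3 was 0.076, S1pr4 -0.087, Foxo1 0.25 and Icos 0.20. Leaving out 1 capture left the other capture's value, with no test, which ranged from -0.30 to 1.45 for S1pr1, -0.32 to 0.58 for S1pr4, -2.34 to 0.082 for Emp3, -0.94 to 1.95 for Cd69, -0.14 to 0.058 for Cxcr3, -0.68 to 0.32 for Bcl6, -1.82 to 0.60 for Foxo1, -0.30 to 0.52 for Tcf7, -0.70 to 0.26 for Icos, -0.30 to 0.48 for Gata3, -1.36 to 0.058 for Ctla4 and -0.11 to 0.40 for Il2ra.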
